A study of Mus musculus with 6 samples.

Results

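The 8 genes described here encode G protein alpha subunits and were measured in sorted tumour endothelial cells: Gnai1, Gnai2 and Gnai3 of the Gi class, Gnas of the Gs class, Gnaq and Gna11 of the Gq/11 class, and Gna12 and Gna13 of the G12/13 class. They were taken by symbol from the 24421 symbols counted in each library, and each was found once. The set was chosen by the counts of Gnai1, which differed between the treatments, and the others are its paralogs. The contrast between the treatments is therefore given for these genes as a description, with no test drawn from it.

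RNA was sequenced from endothelial cells sorted by flow cytometry out of subcutaneous B16F0 tumours, a transplantable mouse melanoma, in C57BL/6 mice. There were 3 libraries from tumours of mice given 15C4, an antibody that blocks the secreted glycoprotein LRG1, and 3 from mice given control IgG. In either group the antibody was injected at 50 mg/kg every 3 days, and the tumours grew for 17 days. No label tells whether separate mice stand behind the 3 libraries of a treatment, so each p-value reflects the spread among libraries alone, part of which may be technical.

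G protein-coupled receptors act through a heterotrimer of an alpha, a beta and a gamma subunit, in which an activated receptor makes the alpha subunit exchange GDP for GTP. Gs alpha stimulates adenylyl cyclase, Gi alpha inhibits it, Gq and G11 alpha activate phospholipase C beta, and G12 and G13 alpha activate guanine nucleotide exchange factors that act on the cytoskeleton. In endothelium, Gi carries signals of the sphingosine 1-phosphate receptor S1PR1, while Gq/11 and G12/13 carry those of the thrombin receptor that open cell junctions.

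The 3 Gi alpha genes are close paralogs, and whether a count can be assigned to one of them depends on how their sequences differ. Over the aligned coding sequence Gnai1 (1062 coding bases) was 78.7% identical to Gnai2 (1065 bases) and 78.2% identical to Gnai3 (1062 bases). The first 90 coding bases are given here from the GENCODE M21 transcripts on GRCm38, 5′ to 3′ on the coding strand, because this window of Gnai1 is the one most like Gnai3. Capitals mark the bases that differ from Gnai1, of which there were 14 in Gnai2 and 8 in Gnai3.
Gnai1: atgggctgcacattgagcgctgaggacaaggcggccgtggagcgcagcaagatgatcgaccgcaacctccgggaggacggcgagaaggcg
Gnai2: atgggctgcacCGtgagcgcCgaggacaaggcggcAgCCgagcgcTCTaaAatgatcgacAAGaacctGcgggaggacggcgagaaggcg
Gnai3: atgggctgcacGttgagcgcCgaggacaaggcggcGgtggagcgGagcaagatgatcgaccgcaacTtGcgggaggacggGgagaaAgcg
The longest run of aligned coding bases shared without a difference was 32 bases between Gnai1 and Gnai2 and 21 bases between Gnai1 and Gnai3. Of the 3086 distinct 50-base stretches in the annotated Gnai1 transcript, 0 occurred in a transcript of any other gene, and the same held for the 3213 stretches of Gnai3 and the 4046 of Gna11. For Gnai2, 1.92% of the stretches occurred elsewhere, none of them in another of the 8 genes.

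Gnai1 lies on chromosome 5 at 18265135 to 18360355, minus strand (GRCm38, GENCODE M21), and is overlapped only by a processed pseudogene on the opposite strand. RefSeq gave a promoter window, from 250 bases before to 50 bases after the start, for 7 of the 8 genes, with 4 windows for Gnas. Those of Gnai1 and Gnai3, the other Gi gene with a window, are shown to set the promoter of the gene with the large difference beside that of a paralog without it. Capitals mark exact matches to the GC box (GGGCGG), the E-box (CACGTG) and an ETS motif (CCGGAAGT), searched on both strands with the cAMP response element (TGACGTCA), and no matches overlapped each other.
Gnai1, chr5:18360364-18360663, GRCm38.p6, minus strand: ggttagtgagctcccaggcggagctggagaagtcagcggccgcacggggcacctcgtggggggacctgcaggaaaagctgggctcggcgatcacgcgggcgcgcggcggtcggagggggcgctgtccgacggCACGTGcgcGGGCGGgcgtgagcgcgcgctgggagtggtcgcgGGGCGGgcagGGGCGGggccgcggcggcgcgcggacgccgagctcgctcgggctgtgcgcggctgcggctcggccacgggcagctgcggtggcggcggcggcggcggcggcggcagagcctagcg
Gnai3, chr3:108146103-108146402, GRCm38.p6, minus strand: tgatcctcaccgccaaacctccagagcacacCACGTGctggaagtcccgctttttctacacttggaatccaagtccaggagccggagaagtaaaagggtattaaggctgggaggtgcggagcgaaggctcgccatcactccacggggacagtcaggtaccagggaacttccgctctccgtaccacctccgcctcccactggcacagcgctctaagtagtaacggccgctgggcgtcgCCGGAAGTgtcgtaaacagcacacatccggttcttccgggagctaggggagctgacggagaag
The Gnai1 window was 80.0% GC with 53 CpG pairs and held 3 GC boxes and 1 E-box. The Gnai3 window was 59.3% GC with 21 CpG pairs and held 1 E-box and 1 ETS match. All windows of the 7 genes, between 59.3% and 81.7% GC with 16 to 53 CpG pairs, lay above the median of the 32851 RefSeq promoter windows, which was 52.7% GC and 7 CpG pairs. A GC box was found in 35.7% of all windows, an E-box in 7.2%, an ETS match in 3.9% and a cAMP response element in 1.8%. No window of the 7 genes held the last of these, which says only that its letters are not there.

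The libraries differed in depth and makeup. They held 5175600 to 19572202 counts, and 10413 to 13707 symbols had at least 1 count. Of the 11144 genes that passed the filter on low counts, 1537 were at 0 in 15C4 3, against 31 to 507 in the other libraries. The sorted cells carried melanocyte transcripts at a high level: the 9 melanocyte markers summed to between 23290 and 28500 CPM (counts scaled to the same total in every library), whereas the 10 endothelial markers summed to 986.1, 2275 and 1246 CPM in 15C4 1, 2 and 3, against 1229, 1845 and 130.9 CPM in IgG 1, 2 and 3. The level of any of the 8 genes is thus that of a mixture, in which fewer cells of a type and less RNA per cell cannot be told apart. Of the lymphatic markers, 1 of the 7 was at 0 throughout, and their sum was 1168 CPM in IgG 2 but no more than 63.8 CPM in any other library. Of the T and NK cell markers, 1 of the 10 was at 0 throughout, and their sum was 442.3 CPM in IgG 1 but no more than 10.6 CPM in any other library. Macrophage and monocyte markers lay between 0.156 and 52.8 CPM in 15C4 and between 9.85 and 114.0 CPM in IgG, fibroblast markers between 0.119 and 155.0 CPM in 15C4 and between 1.71 and 94.3 CPM in IgG, and pericyte and smooth muscle markers between 57.2 and 82.0 CPM in 15C4 and between 10.45 and 101.9 CPM in IgG. Platelet and red blood cell markers reached at most 1.74 CPM, with 3 of the 7 at 0 throughout.

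Gnai1 was close to absent in the 15C4 libraries and present in every IgG library, and it was the only one of the 8 genes whose groups did not overlap. Among all 11144 genes fitted, 6.64% had every 15C4 library below every IgG library, 2.88% had the reverse and 9.52% had either. It had 1, 1 and 0 counts in 15C4 1, 2 and 3, against 94, 308 and 175 counts in IgG 1, 2 and 3. In CPM this was 0.119, 0.0511 and 0 in 15C4 and 18.2, 31.9 and 15.0 in IgG, with means of 0.0567 ± 0.0597 CPM in 15C4, against 21.7 ± 9.01 CPM in IgG (± SD, 3 libraries each). Every IgG library was thus well above every 15C4 library. Over all counts of a group Gnai1 stood at 0.0582 CPM in 15C4 and at 21.8 CPM in IgG, a level 374-fold lower in 15C4 (95% counting interval 103 to 3098). The interval covers counting error of reads taken as independent, and leaves out the spread among libraries. The cDNA was amplified by PCR, and copies counted as separate reads would make it too narrow even for that. At the pooled IgG level 183, 426 and 139 counts would have stood in 15C4 1, 2 and 3. The deepest library of all, 15C4 2, had 1 count. Without each library in turn the ratio lay between 274 and 566.

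With at most 1 count in each 15C4 library and at least 50 in each IgG library, limits set around the counts of Gnai1 after they were seen, 6 of the 11144 genes (0.0538%) were found, and 0 in the reverse direction. Gnai1 meets these limits by their choice. The others, named after their values were seen, were 3830403N18Rik, Kcnn4 (a calcium-activated potassium channel), Rab39b (a small GTPase of vesicle traffic), Tinf2 (a protein of telomeres) and Zfp763 (a zinc finger protein), each with 0 counts in all 15C4 libraries. Their IgG counts lay between 56 in Zfp763 or Kcnn4 and 662 in Kcnn4. Of the fitted genes, 507, 334 and 1537 were at 0 in 15C4 1, 2 and 3, against 31, 178 and 347 in IgG 1, 2 and 3. The part of these zeros in the direction of the pattern was not tested.

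No gene of the 7 fitted passed an adjusted p of 0.05 in the edgeR quasi-likelihood test, where 0% of all 11144 genes passed. At an unadjusted p of 0.05 the test took in 288 genes (2.58%), among them Gnai1 alone of the 7. DESeq2 called 26 genes, again with Gnai1 alone of the 7, and limma-voom called 0 genes with 461 at an unadjusted p of 0.05. In the authors' deposited table, whose log2 fold change is IgG over 15C4, Gnai1 stood at 8.36 with an adjusted p of 3.11e-05. Nothing is read from these calls, since this contrast is the one for which Gnai1 was put forward.

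Marker sums are given beside the Gnai1 levels, and their part in the Gnai1 difference was not tested. Endothelial markers summed to 986.1, 2275 and 1246 CPM in 15C4 1, 2 and 3, where Gnai1 was at 0.119, 0.0511 and 0 CPM. They summed to 1229, 1845 and 130.9 CPM in IgG 1, 2 and 3, where Gnai1 was at 18.2, 31.9 and 15.0 CPM. Melanocyte markers summed to 27610, 23440 and 26940 CPM in 15C4 and to 28500, 26860 and 23290 CPM in IgG, so that the groups overlapped.

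**Figure D1:**
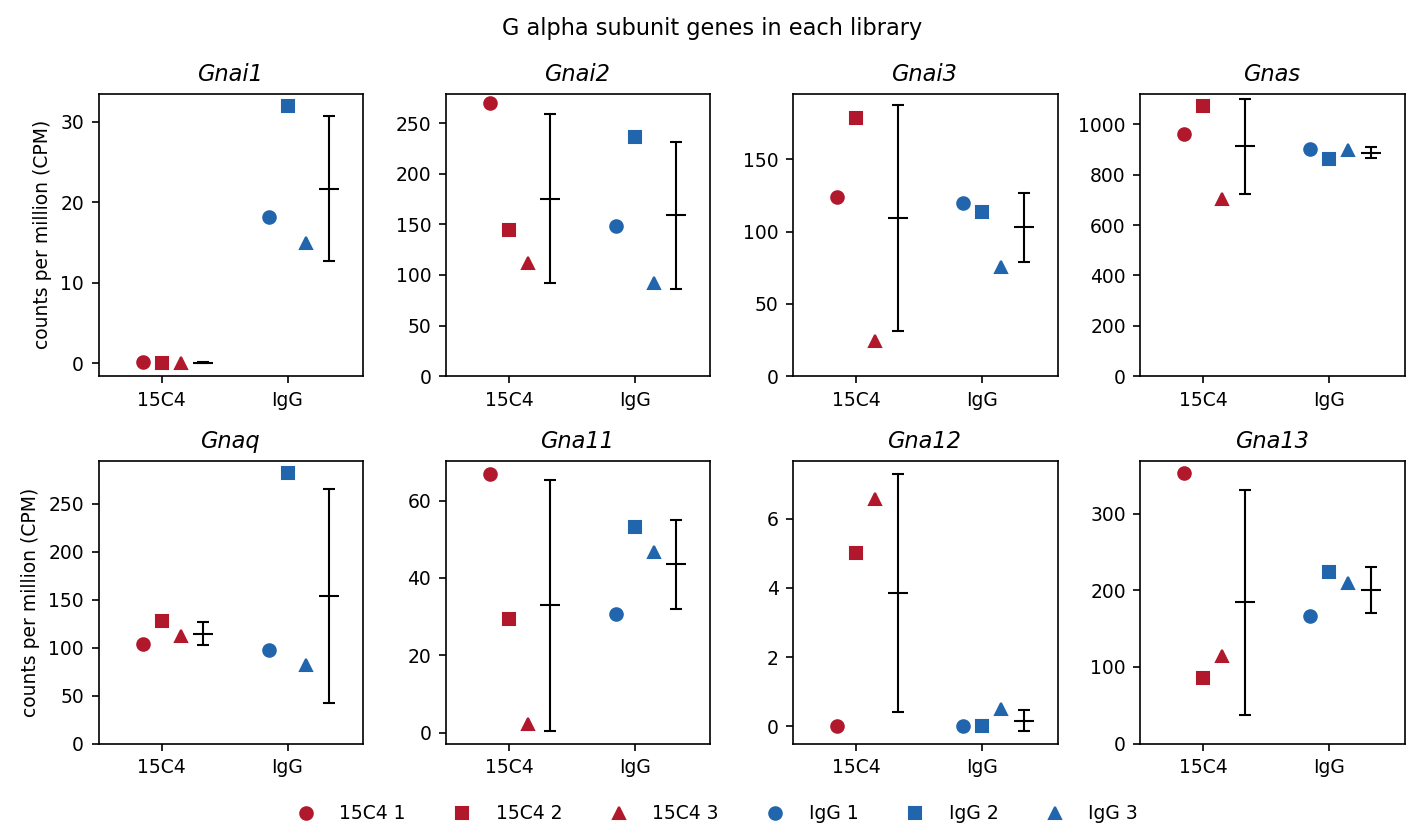
Level of each of the 8 G alpha genes in CPM of the library total (y axis, linear, own scale per gene) in the 3 libraries of 15C4 (red, left) and of IgG (blue, right), 1 symbol per library, with the mean and SD of 3 as a bar. Gnai1 lies at or below 0.119 CPM in 15C4 and between 15.0 and 31.9 CPM in IgG, and the groups overlap for the other 7 genes.

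Gnai2 and Gnai3, the other Gi alpha genes, were present in every library and their groups overlapped. Gnai2 (chromosome 9, 107614125 to 107635367), which encodes a widely expressed Gi alpha subunit, was at 270.2, 144.5 and 111.5 CPM in 15C4 and at 148.6, 236.3 and 92.1 CPM in IgG. Its mean was 175.4 ± 83.7 CPM in 15C4, against 159.0 ± 72.6 CPM in IgG (± SD, 3 libraries each), and its log2 fold change in the edgeR fit was 0.20 (15C4 over IgG, SE 0.45). Each group thus held both high and low libraries, which differed up to 2.93-fold over all 6.

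Gnai3 (chromosome 3, 108107280 to 108146146), also widely expressed, was at 123.9, 178.8 and 24.6 CPM in 15C4 and at 119.8, 113.4 and 75.2 CPM in IgG. Its mean was 109.1 ± 78.2 CPM in 15C4, against 102.8 ± 24.1 CPM in IgG (± SD, 3 libraries each), and its log2 fold change was 0.15 (SE 0.64). The low value was that of 15C4 3, the library with the most fitted genes at 0, and its part in the fold change was not tested beyond leaving the library out, which gave 0.61.

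Summed over the 3 genes, the Gi alpha level was 394.2, 323.3 and 136.1 CPM in 15C4 and 286.5, 381.6 and 182.4 CPM in IgG. The group means were 284.6 ± 133.4 CPM in 15C4, against 283.5 ± 99.6 CPM in IgG (± SD, 3 libraries each). The sums overlapped, and Gnai1 made up a small part of them in either group.

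Within the Gi class Gnai1 made up 1 of 3312 counts in 15C4 1 (0.0302%, exact Clopper-Pearson 95% interval 0.000764 to 0.168%), 1 of 6328 counts in 15C4 2 (0.0158%, 0.000400 to 0.0880%) and 0 of 870 counts in 15C4 3, which at the floor of 3 counts allows a share of up to 0.345%. It made up 94 of 1483 counts in IgG 1 (6.34%, 5.15 to 7.70%), 308 of 3679 in IgG 2 (8.37%, 7.497 to 9.314%) and 175 of 2128 in IgG 3 (8.22%, 7.09 to 9.47%). This ratio within a library does not depend on how the library was scaled. Divided by gene length, the shares were 0.0347%, 0.0175% and 0% in 15C4 and 7.08%, 9.48% and 9.16% in IgG. The intervals take each read as independent and leave out the spread among libraries. Gnai1 was chosen by these counts, so the intervals describe its share and test nothing.

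**Figure D2:**
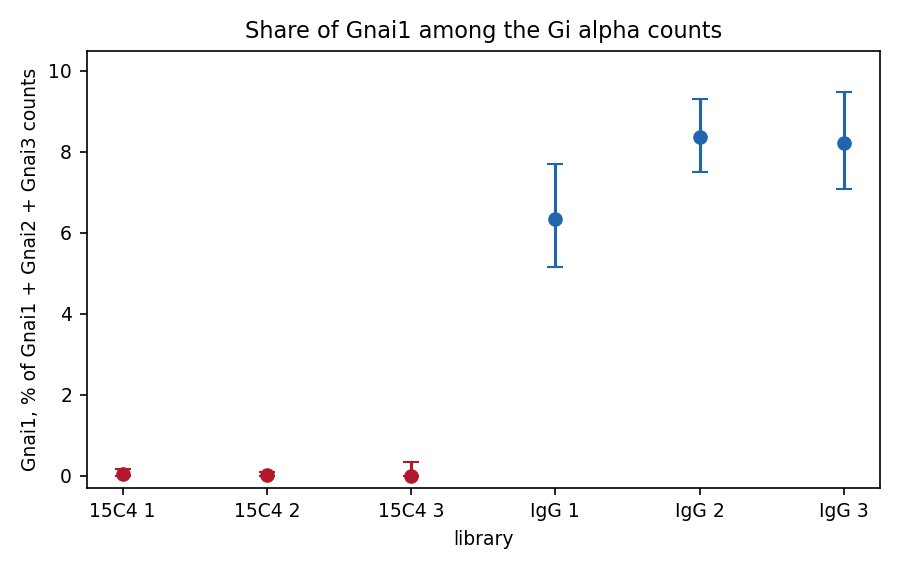
Share of Gnai1 among the summed counts of Gnai1, Gnai2 and Gnai3 (y axis, %) in each library (x axis), with exact 95% intervals as bars; for 15C4 3, with 0 counts of Gnai1, the bar ends at the share that 3 counts would give. The 15C4 libraries lie at 0.0302% or below and the IgG libraries between 6.34% and 8.37%.

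Gnas, which encodes the stimulatory alpha subunit, had the steadiest level of the 8 genes. It was at 960.5, 1073 and 702.2 CPM in 15C4 and at 901.5, 863.8 and 898.0 CPM in IgG. The mean was 911.9 ± 190.1 CPM in 15C4, against 887.8 ± 20.9 CPM in IgG (± SD, 3 libraries each), and its log2 fold change was 0.12 (SE 0.28). Its coefficient of variation over the 6 libraries was 13.5%, below that of all but 0.978% of the fitted genes, whose median was 55.4%. The highest and lowest libraries, both of 15C4, differed 1.53-fold.

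Gnas (chromosome 2, 174284320 to 174346744) is an imprinted locus with several promoters and an antisense transcript, Nespas. Of its distinct 50-base stretches 18.65% also lie in genes on the opposite strand, and whether strand was used in counting is not given in the sources used here, so reads there could not be assigned with certainty. Nespas itself had 0 counts in every library.

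Gnaq and Gna11, the Gq/11 pair, overlapped between the groups, and each had 1 library far from the rest. Gnaq (chromosome 19, 16132831 to 16387463) was at 104.0, 127.3 and 112.3 CPM in 15C4 and at 97.4, 282.4 and 81.9 CPM in IgG. The mean was 114.5 ± 11.8 CPM in 15C4, against 153.9 ± 111.6 CPM in IgG (± SD, 3 libraries each). The log2 fold change was -0.32 (SE 0.51), and it was 0.44 without IgG 2, the library with the high Gnaq value and the lymphatic marker sum of 1168 CPM. The part of lymphatic cells in the Gnaq level was not tested.

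Gna11 (chromosome 10, 81528724 to 81545190) was at 66.9, 29.5 and 2.35 CPM in 15C4 and at 30.7, 53.2 and 46.6 CPM in IgG. The mean was 32.9 ± 32.4 CPM in 15C4, against 43.5 ± 11.6 CPM in IgG (± SD, 3 libraries each), and its log2 fold change was -0.39 (SE 0.94). The 15C4 libraries held both the highest and the lowest of the 6 values, 28.5-fold apart, and the lowest was 15 counts in 15C4 3. Without 15C4 3 the log2 fold change was 0.16.

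The sum of the pair was 170.9, 156.8 and 114.7 CPM in 15C4 and 128.1, 335.6 and 128.5 CPM in IgG, with means of 147.5 ± 29.3 CPM in 15C4, against 197.4 ± 119.7 CPM in IgG (± SD, 3 libraries each). Gnaq and Gna11 were 80.5% identical over their aligned coding bases, the closest of the pairs among the 8 genes, with no 50-base stretch in common.

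Gna13 and Gna12, the G12/13 pair, differed widely in abundance. Gna13 (chromosome 11, 109362831 to 109401369), whose product links receptors to the cytoskeleton in endothelium, was at 352.8, 85.6 and 113.9 CPM in 15C4 and at 167.1, 223.8 and 210.0 CPM in IgG. The mean was 184.1 ± 146.8 CPM in 15C4, against 200.3 ± 29.6 CPM in IgG (± SD, 3 libraries each), and its log2 fold change was -0.09 (SE 0.50). In 15C4, 1 library lay above and the other two lay below all IgG libraries. Without that high library, 15C4 1, the log2 fold change was -0.84.

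Gna12 (chromosome 5, 140758408 to 140830431) was at or near 0 in most libraries and did not pass the filter on low counts. It had 0, 98 and 42 counts in 15C4 1, 2 and 3, against 0, 0 and 6 counts in IgG 1, 2 and 3. In CPM this was 0, 5.01 and 6.57 in 15C4 and 0, 0 and 0.514 in IgG, and the groups overlapped at 0. Libraries at 0 allow up to 0.357 CPM in 15C4 1, 0.580 CPM in IgG 1 and 0.311 CPM in IgG 2.

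Over the pooled counts Gna12 was 17.98-fold higher in 15C4 (140 against 6 counts, 95% counting interval 8.06 to 49.8). As for Gnai1, the interval takes reads as independent and leaves out the spread among libraries, and PCR copies would make it too narrow. Without IgG 3, where all its IgG counts lay, the ratio was 20.1 with IgG set at 3 counts over the group. No interval was computed for that ratio, so it is not a lower bound. This ratio rests on 15C4 2 and 15C4 3 alone. In the authors' deposited table, whose log2 fold change is IgG over 15C4, Gna12 stood at -4.57 with an adjusted p of 0.107. Of the distinct 50-base stretches of Gna12, 10.8% lie in Amz1 on the opposite strand, which had 19 counts in 15C4 2 and 0 in all other libraries, so the 2 genes' counts are uncertain there.

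Summed over all 8 genes, the G alpha level was 1879, 1644 and 1073 CPM in 15C4 and 1483, 1805 and 1419 CPM in IgG. The means were 1532 ± 414 CPM in 15C4, against 1569 ± 206.5 CPM in IgG (± SD, 3 libraries each). The highest and the lowest sum were both those of 15C4 libraries, so no shift of the sum between the groups was seen beyond the spread. Gnas, with means of 911.9 CPM in 15C4 and 887.8 CPM in IgG, made up most of the sum, which therefore says little about the other genes.

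Levels of different genes were compared per length, as CPM per kilobase of merged exons. In order of the mean of the 6 libraries, Gnas stood at 80.4 ± 10.9, Gnai2 at 44.2 ± 18.7, Gnai3 at 32.5 ± 15.9 and Gna13 at 29.9 ± 14.8 CPM per kilobase (SD, n = 6). Gnaq followed at 21.7 ± 11.99, Gna11 at 9.33 ± 5.50, Gnai1 at 3.47 ± 4.20 and Gna12 at 0.590 ± 0.870 CPM per kilobase (SD, n = 6). The ranges of every neighbouring pair in this order overlapped. The last means rest on few libraries: without IgG 2 Gnai1 stood at 2.13, and without 15C4 3 Gna12 stood at 0.323 CPM per kilobase.

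Within libraries the order was firmer at some steps than at others. Gnas was above Gnai2, Gnaq above Gna11 and Gna11 above Gnai1 in 6 of 6 libraries each. Gnai2 was above Gnai3 in 5 of 6, but Gnai3 was above Gna13 in 2 of 6 and Gna13 above Gnaq in 3 of 6, so those neighbours could not be ordered. Gnai1 was above Gna12 in 4 of 6 libraries. Per kilobase Gnai1 was at 0.0380, 0.0163 and 0 in 15C4 and at 5.79, 10.2 and 4.78 in IgG. In the IgG libraries it therefore came near Gna11, which was at 16.3, 7.20 and 0.573 CPM per kilobase in 15C4 and at 7.498, 12.99 and 11.38 CPM per kilobase in IgG. The merged length of Gnas, 11186 bases, exceeds its longest transcript of 3947 bases, and with the longest transcript of each gene Gnas stood at 228 and Gnai2 at 75.5 CPM per kilobase with the order unchanged.

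**Figure D3:**
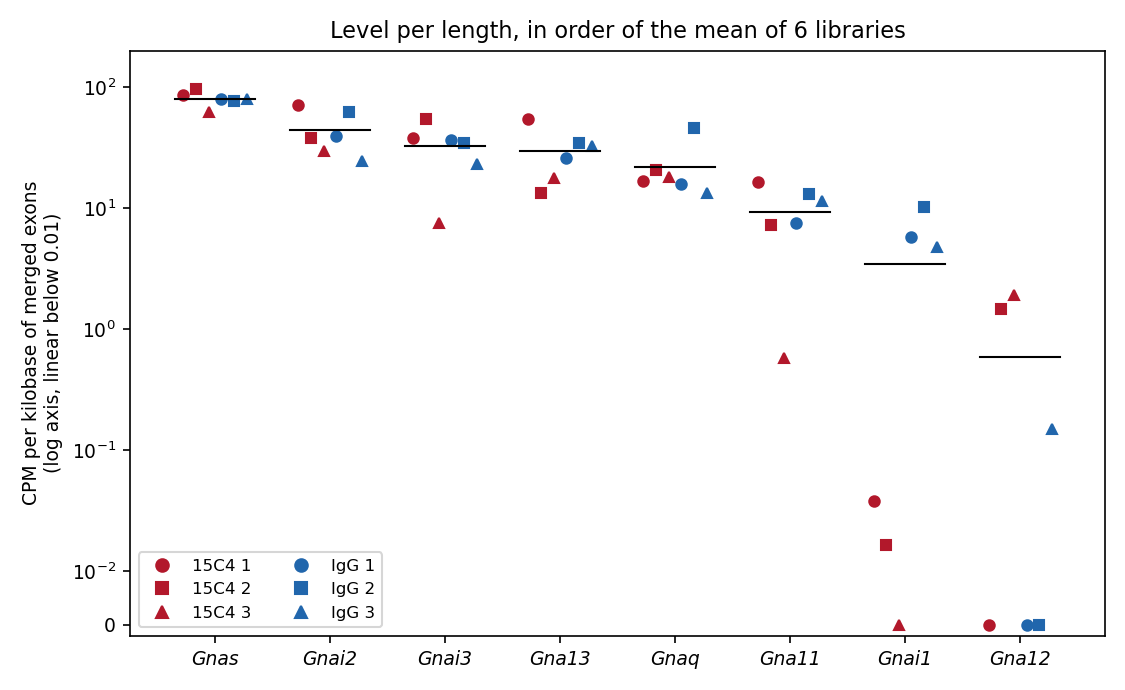
CPM per kilobase of merged exons (y axis, log scale, linear below 0.01) of the 8 G alpha genes, in order of the mean of 6 libraries (black line), with 15C4 libraries in red and IgG libraries in blue. Gnas leads with a mean of 80.4, Gnai1 splits by treatment with 15C4 at or below 0.0380 and IgG at 4.78 or above, and Gna12 is at 0 in 3 libraries.

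The genes whose pattern over the 6 libraries was nearest to Gnai1 were found by the root mean square difference of log2(CPM + 1), each gene centred on its own mean. The nearest, 4930579G24Rik, differed by 0.196 on the log2 scale, with 0, 2 and 0 counts in 15C4 and 131, 360 and 207 in IgG. Zfp959, a zinc finger gene, followed at 0.418, with 1, 6 and 0 counts in 15C4 and 95, 177 and 272 in IgG. A830010M20Rik lay at 0.487, with 0 counts in each 15C4 library and 47, 117 and 110 in IgG.

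Aurkb, which encodes a kinase of mitosis, lay at 0.500, with 3, 16 and 1 counts in 15C4 and 203, 280 and 131 in IgG. Zfp763 lay at 0.517, with 0 counts in each 15C4 library and 64, 166 and 56 in IgG. The median difference from Gnai1 over all fitted genes was 2.23. Since Gnai1 separates the groups, its nearest genes do so too, and their likeness is a description over 6 libraries.

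Only genes that passed the filter on low counts were searched, so Gna12 could not be listed. None of the other G alpha genes was among the 5 nearest to Gnai1. Their groups overlapped, whereas those of Gnai1 did not, so nothing is read from this. The single nearest gene was Whsc1 for Gnai2 (0.110), 4921524J17Rik for Gnai3 (0.111), Srsf3 for Gnas (0.0663), Cic for Gnaq (0.223), Ehbp1l1 for Gna11 (0.0584), AI987944 for Gna12 (0.345) and Nploc4 for Gna13 (0.128), as root mean square differences on the same log2 scale. None of these is another of the 8 genes.

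The rest of the G protein pathway was described by 10 lists of 123 genes measured, of which 85 passed the filter on low counts. No gene of these lists passed an adjusted p of 0.05 in edgeR, where 0% of all genes did. The fitted log2 fold change lay above 0 for 41 and below 0 for 44 of the 85, with a median of -0.06, beside 5649 above and 5495 below with a median of 0.01 over all 11144 genes. The groups did not overlap for 7 of the 85 (8.24%), 2 higher and 5 lower in 15C4, a share near the 9.52% of all genes.

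Of 8 other G alpha genes, Gnal and Gnao1 were fitted, and both lay below 0. Gnal, the Gs-like subunit of olfactory neurons, averaged 16.1 ± 15.0 CPM in 15C4, against 25.7 ± 11.8 CPM in IgG (± SD, 3 libraries each). Gnao1, the Go subunit abundant in neurons, averaged 4.44 ± 4.87 CPM in 15C4, against 10.2 ± 6.76 CPM in IgG (± SD, 3 libraries each). The groups overlapped for both. Gna15, a Gq-class subunit of blood cells, had 0, 1 and 0 counts in 15C4 and 4, 0 and 0 counts in IgG.

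Among the 11 fitted beta and gamma subunit genes of 17 measured, 9 lay above 0 and 2 below, with a median log2 fold change of 0.20. Gnb1, the most abundant beta subunit gene, averaged 538.1 ± 21.4 CPM in 15C4, against 560.9 ± 118.1 CPM in IgG (± SD, 3 libraries each). Its fitted log2 fold change was 0.03 (SE 0.29). The fit normalised the counts otherwise than CPM, and its sign is not that of the CPM means. Gng11, a gamma subunit gene, averaged 487.2 ± 380.4 CPM in 15C4, against 562.6 ± 131.3 CPM in IgG (± SD, 3 libraries each). Gng12, another, averaged 445.7 ± 97.6 CPM in 15C4, against 418.5 ± 170.4 CPM in IgG (± SD, 3 libraries each). The groups overlapped for all 11 fitted genes. Among all 11144 genes fitted, 9.52% had groups that did not overlap, so nothing is read from this about the partners of the alpha subunits.

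Regulators of G protein signalling (RGS proteins) speed the hydrolysis of GTP by alpha subunits. Of 23 such genes and other inhibitors 13 were fitted, 5 above 0 and 8 below, with a median log2 fold change of -0.21. The groups overlapped for all 13, where 9.52% of all 11144 genes fitted did not overlap, and nothing is read from this. Rgs2, which acts chiefly on Gq, was at 0.238, 185.4 and 12.04 CPM in 15C4 and at 25.3, 4.56 and 10.54 CPM in IgG, so its high mean in 15C4 was that of 15C4 2. Rgs19, which acts on Gi alpha subunits, averaged 22.0 ± 7.35 CPM in 15C4, against 46.5 ± 23.3 CPM in IgG (± SD, 3 libraries each), and its fitted log2 fold change was -0.96 (SE 0.67). Rgs11 averaged 12.8 ± 13.9 CPM in 15C4, against 9.49 ± 5.19 CPM in IgG (± SD, 3 libraries each).

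All 5 measured genes of chaperones and exchange factors of alpha subunits were fitted, 2 above 0 and 3 below, with a median log2 fold change of -0.15. Ccdc88a, whose product girdin binds Gi alpha subunits, averaged 207.0 ± 43.9 CPM in 15C4, against 241.9 ± 42.6 CPM in IgG (± SD, 3 libraries each). The phosducin-like genes Pdcl3 and Pdcl stood at log2 fold changes of 0.47 (SE 0.41) and -0.18 (SE 0.48). Their groups overlapped too.

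The cyclic AMP arm, which Gs and Gi set in opposite directions, held 16 adenylyl cyclase and protein kinase A genes, of which 12 were fitted, 6 above 0 and 6 below, with a median log2 fold change of -0.02. Prkar1a, a regulatory subunit of protein kinase A, averaged 469.5 ± 43.7 CPM in 15C4, against 526.2 ± 67.6 CPM in IgG (± SD, 3 libraries each). Prkacb, a catalytic subunit, averaged 185.7 ± 55.5 CPM in 15C4, against 194.6 ± 61.8 CPM in IgG (± SD, 3 libraries each). Creb1, a transcription factor phosphorylated by the kinase, averaged 106.2 ± 88.6 CPM in 15C4, against 165.0 ± 31.6 CPM in IgG (± SD, 3 libraries each). All 3 overlapped between the groups.

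In the same list 2 of the 12 fitted genes, Adcy7 and Adcy3 of the adenylyl cyclases, did not overlap, both lower in 15C4. Of all 11144 genes fitted, 6.64% were lower without overlap. Both are named after their values were seen. Adcy7 was at 13.1, 6.49 and 2.82 CPM in 15C4 and at 26.9, 39.6 and 25.2 CPM in IgG, a log2 fold change of -1.99 (SE 0.80). Adcy3 had 7, 1 and 0 counts in 15C4 and 11, 13 and 18 counts in IgG. Neither passed the adjusted p, which was 1.00 for both in edgeR.

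Gq effectors had the lowest median of the larger lists, -0.71 on the log2 scale, with 3 of 11 fitted genes above 0 and 8 below out of 14 measured. The inositol trisphosphate receptor gene Itpr1 averaged 128.2 ± 24.2 CPM in 15C4, against 147.0 ± 8.55 CPM in IgG (± SD, 3 libraries each). The protein kinase C gene Prkce averaged 59.7 ± 35.5 CPM in 15C4, against 38.1 ± 8.67 CPM in IgG (± SD, 3 libraries each). These groups overlapped.

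The groups did not overlap for 3 of the 11 fitted Gq effectors, all lower in 15C4. Beside this, 6.64% of all 11144 genes fitted were lower without overlap, and the difference in share was not tested. Trio, a guanine nucleotide exchange factor that Gq activates, was at 59.2, 45.2 and 7.82 CPM in 15C4 and at 89.5, 118.5 and 67.4 CPM in IgG, a log2 fold change of -1.25 (SE 0.68). Arhgef25 and Prkca, named after their values were seen, are another such exchange factor and a protein kinase C. Arhgef25 had 0, 7 and 4 counts in 15C4 and 49, 107 and 98 counts in IgG, a log2 fold change of -4.69 (SE 1.63). Prkca was at 12.4, 19.5 and 0 CPM in 15C4 and at 29.8, 35.1 and 30.2 CPM in IgG. The edgeR adjusted p of all 3 was 1.00, and the lowest value of Trio and of Prkca was that of 15C4 3.

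All 9 measured G12 and G13 effectors were fitted, 3 above 0 and 6 below, with a median log2 fold change of -0.10. The kinase gene Rock1 averaged 541.1 ± 48.7 CPM in 15C4, against 593.5 ± 189.4 CPM in IgG (± SD, 3 libraries each). Rock2, its paralog, averaged 356.7 ± 206.5 CPM in 15C4, against 578.6 ± 78.7 CPM in IgG (± SD, 3 libraries each). Arhgef12, a guanine nucleotide exchange factor that G12 and G13 activate, averaged 200.6 ± 63.0 CPM in 15C4, against 253.2 ± 67.3 CPM in IgG (± SD, 3 libraries each).

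Receptor kinases and arrestins, which end receptor signalling, had 6 of 7 genes fitted, 2 above 0 and 4 below, with a median log2 fold change of -0.23. Adrbk1, which encodes the receptor kinase GRK2, averaged 19.2 ± 20.0 CPM in 15C4, against 14.1 ± 6.77 CPM in IgG (± SD, 3 libraries each). Grk5 averaged 12.1 ± 16.5 CPM in 15C4, against 15.1 ± 7.02 CPM in IgG, and Grk6 averaged 8.89 ± 10.7 CPM in 15C4, against 18.1 ± 10.53 CPM in IgG (± SD, 3 libraries each). The SD in 15C4 exceeded the mean for each of these kinases, whose lowest value was in 15C4 3.

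The G protein-coupled receptors of endothelial cells had the highest median of the 10 lists, 0.64 on the log2 scale, with 10 of 13 fitted genes above 0 and 3 below out of 20 measured. S1pr1, the Gi-coupled sphingosine 1-phosphate receptor gene, was at 284.4, 283.0 and 397.3 CPM in 15C4 and at 234.2, 166.7 and 9.60 CPM in IgG, with no overlap and a log2 fold change of 1.35 (SE 0.87). Of the 13 fitted receptor genes 1 was thus higher in 15C4 without overlap, beside 2.88% of all 11144 genes fitted. S1pr1 did not pass the adjusted p in edgeR. Adgrl4, an adhesion receptor gene of endothelium, averaged 217.5 ± 116.2 CPM in 15C4, against 76.4 ± 60.1 CPM in IgG, and Adgrf5, another, averaged 289.9 ± 128.5 CPM in 15C4, against 182.1 ± 146.3 CPM in IgG (± SD, 3 libraries each). All 3 were lowest in IgG 3, at 9.60 CPM for S1pr1, 6.94 CPM for Adgrl4 and 22.1 CPM for Adgrf5, where the endothelial markers summed to 130.9 CPM and Cdh5, the VE-cadherin gene, stood at 46.3 CPM. The part of the endothelial share in these receptor values was not tested.

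The 4 fitted receptor genes of melanocytes, of 5 measured, had a median log2 fold change of 0.30, with 2 above 0 and 2 below. Mc1r, the Gs-coupled melanocortin receptor gene, was at 205.5, 176.2 and 1.56 CPM in 15C4 and at 188.2, 192.5 and 156.9 CPM in IgG. Ednrb, an endothelin receptor gene also on the endothelial list, was at 50.7, 122.5 and 0.156 CPM in 15C4 and at 46.2, 50.1 and 5.40 CPM in IgG. Gpr143, a receptor gene of the melanosome, averaged 72.1 ± 64.7 CPM in 15C4, against 40.9 ± 11.9 CPM in IgG (± SD, 3 libraries each), with its highest value, 146.4 CPM, in 15C4 3. Mc1r and Ednrb were thus close to 0 in 15C4 3 while the melanocyte sum of that library was 26940 CPM.

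**Figure D4:**
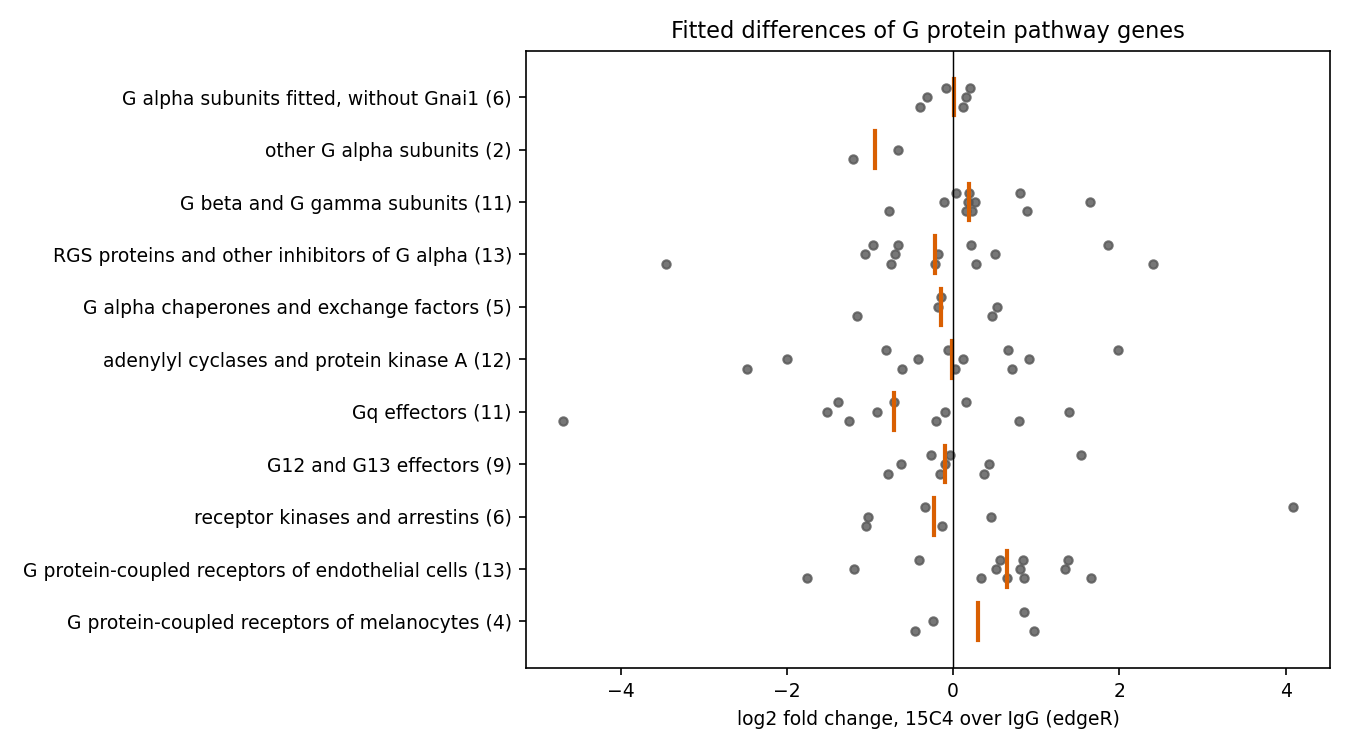
Fitted log2 fold change, 15C4 over IgG (x axis), of every fitted gene (grey points) in the G alpha set without Gnai1 and in the 10 pathway lists (rows, number of genes in brackets), with the median of each row as an orange bar. The 6 G alpha genes lie between -0.39 and 0.20, the Gq effectors have a median of -0.71 and the endothelial receptors one of 0.64, and no gene passed the adjusted p.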

How the data were processed

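RNA was measured in 3 libraries of 15C4 and 3 of IgG. Per the labels' protocols, cDNA was amplified by PCR before Nextera XT library preparation. The authors deposited whole-number counts per gene symbol for each library, and a table of the whole series whose counts equalled these for all 24394 symbols spelled alike. The submitters' processing notes name the tools featureCounts, DESeq2, fastp and STAR 2.5b and list both mm9 and mm10 as builds, with no role for either. The counts' own build, annotation and strand setting were not given in the sources used here. Beside the counts, the authors' deposited table also holds an adjusted p-value and a log2 fold change, whose sign against the group means shows IgG over 15C4. The libraries that entered that fit are not named.

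CPM here is each library's counts scaled to the same total, and per-length levels divide it by merged exon length from GENCODE M21. TMM-normalised counts that passed filterByExpr (minimum count 10, total 15) were fitted in R 4.3.3 with edgeR 4.0.16 and its quasi-likelihood test, with treatment as the only term and all 6 libraries. Adjusted p is by Benjamini-Hochberg over 11144 genes with a threshold of 0.05. The SE was derived from the test statistic. DESeq2 1.42.0 and limma-voom (limma 3.58.1) were alternatives, and the fits were tested on simulated data. A fold against a group at 0 counts uses a floor of 3 counts over the group, and a share or level at 0 uses 3 counts in the library. Intervals are at 95%. The log2 used for likeness has 1 CPM added.

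The members and lists were chosen with earlier results of these data known. Named genes are all 8 members, the 3 genes of each list with the highest mean CPM, and the genes nearest to each member (5 for Gnai1, 1 for each other). Adcy3, Adcy7, Arhgef25, Prkca, 3830403N18Rik, Kcnn4, Rab39b and Tinf2 fall outside this rule and were named after their values were seen. Ric8a, on the list of chaperones and exchange factors, was not matched by symbol. A result of 1 gene of the G12 and G13 effector list is not reported here. Leaving out each library in turn, other normalisations and filters, and a replicate term were tried. The deviations of same-numbered libraries correlated at -0.0357, 0.0633 and 0.101, so the numbers were not taken to pair the samples.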

Additional observations from a re-analysis of the deposited data

How the results depend on the processing

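The count of 0 genes past the adjusted p in edgeR was 0 also under DESeq2 size factors, library totals, a mean count of at least 50, limma-voom, and without each library in turn (range 0 to 0), with 220 to 672 genes at an unadjusted p of 0.05 without a library. It was 1, lower in 15C4 (3830403N18Rik), where 16089 genes with at least 1 count were tested, and 26 with DESeq2 (3 higher and 23 lower in 15C4), which also called 1 of the 8 genes, Gnai1. With a replicate block 0 genes passed and 207 had an unadjusted p under 0.05, and the log2 fold change was -0.20 for Gnai3, -1.09 for Gna11 and -0.33 for Gna13. The pathway lists held 0 genes past the threshold in every setting run. Without each library in turn the log2 fold change, 15C4 over IgG, ranged from -0.15 to 0.58 for Gnai2, -0.45 to 0.61 for Gnai3, -0.02 to 0.24 for Gnas, -0.59 to 0.44 for Gnaq (0.44 without IgG 2), -1.34 to 0.16 for Gna11 and -0.84 to 0.25 for Gna13 (-0.84 without 15C4 1). The signs of these 6 genes thus rest on single libraries, and the cause was not tested. The Gnai1 ratio ranged from 274 to 566, and its pooled Gi share from 0.0139 to 0.0239% in 15C4 and from 7.45 to 8.32% in IgG. Of the other changes of setting, the longest transcript moved the per-length levels of Gnas to 228 and Gnai2 to 75.5 CPM per kilobase, and Gnai3 and Gna13 exchanged ranks without 15C4 2. At the depth here, 3 counts were worth 0.153 CPM in the deepest library, 15C4 2, but 0.580 CPM in the shallowest, IgG 1. With 3 libraries a group differences within the spread shown could not be detected.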
